A study of Mus musculus with 4 samples.

Results

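The genes described here are 10 that encode proteins of basement membranes: the collagen IV genes Col4a1 and Col4a2, the related collagen genes Col15a1 and Col18a1, the laminin chain genes Lama4, Lamb1 and Lamc1, the nidogen genes Nid1 and Nid2, and the perlecan gene Hspg2. They were chosen by symbol, and all 10 were found among the 27998 genes of the count matrices. Single cells of mouse hindlimb were profiled in 4 libraries, collected 7 days after a burn of the back over 30% of the body surface and a cut of the left Achilles tendon. The libraries were Ddr2 slie/slie injured limb, littermate control injured limb, Ddr2 slie/slie uninjured limb and littermate control uninjured limb. Injured means the left tendon site and uninjured means the right limb of the same burned mice, so all 4 libraries come from animals with a burn. The slie allele is a spontaneous deletion in Ddr2, which encodes a receptor for fibrillar collagens, and it is carried in every cell. Each library pooled the limbs of 2 mice of 1 genotype. The labels give no age. They call the controls littermates, and the library names mark them as WT (wild type), with no further detail of genotype. With 1 library for each group there was no replicate, so no difference below has a test, and every interval is a 95% interval for counting error only.

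Basement membranes are thin sheets of matrix under epithelia and endothelia and around pericytes, smooth muscle, Schwann cells and muscle fibres. Laminin trimers assemble at the cell surface through integrins and dystroglycan, collagen IV forms another network that is crosslinked covalently, and nidogens and perlecan link both networks. In vessel walls endothelial cells and pericytes share 1 basement membrane and both make it, while fibroblasts supply nidogens and laminin chains in several tissues.

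The deposited matrices held 375 barcodes with 1493147 unique molecular identifiers (UMIs, counts of captured transcript ends) for slie/slie injured, 842 with 4515174 for control injured, 289 with 1540053 for slie/slie uninjured and 1075 with 579790 for control uninjured. Barcodes under 200 genes or over 20% mitochondrial UMIs were dropped, which left 246, 751, 184 and 60 cells in the same order. The control uninjured library lost 991 barcodes with fewer than 200 genes, and its 60 cells limit every comparison that uses it. Median UMIs per cell were 1218, 1641, 4841 and 1337, and the median mitochondrial share was 0.203% and 0.451% in the injured libraries, against 3.27% and 2.38% in the uninjured ones. 1 barcode sequence occurred in more than 1 deposited library and 0 did among the kept cells. As a check of the labels, Ddr2 (chromosome 1, 169972307 to 170110762, minus strand) had 0 UMIs in slie/slie injured cells, which allows up to 3.65 CPM (UMIs per 1000000 UMIs of the same cells), and 115 UMIs in control injured cells, or 28.5 CPM (23.5 to 34.2). In the uninjured limbs Ddr2 had 2 UMIs in slie/slie, or 1.82 CPM (0.221 to 6.59), and 3 UMIs in control, or 12.4 CPM (2.55 to 36.1). Both UMIs of the slie/slie uninjured library lay in 1 cell of the pericyte class, so that library is not at 0 for the deleted gene.

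Col4a1 and Col4a2 encode chains of the same collagen IV trimer and lie head to head on chromosome 8 (mm10). Col4a1 spans 11198423 to 11312826 on the minus strand and Col4a2 spans 11312805 to 11449287 on the plus strand, so that their annotated starts lie 21 bases apart. Their promoter windows of 300 bases (250 before to 50 after the start, from RefSeq, GRCm38.p6) are shown because the pair is the most abundant of the 10 genes in vessel cells and the windows share 78 bases. Both are printed 5′ to 3′ on the strand of their own gene, Col4a1 at chr8:11312777-11313076 (minus) and Col4a2 at chr8:11312555-11312854 (plus). Capitals mark GGGCGG, the core of a GC box, and CCAAT, each on either strand (CCGCCC and ATTGG).
Col4a1: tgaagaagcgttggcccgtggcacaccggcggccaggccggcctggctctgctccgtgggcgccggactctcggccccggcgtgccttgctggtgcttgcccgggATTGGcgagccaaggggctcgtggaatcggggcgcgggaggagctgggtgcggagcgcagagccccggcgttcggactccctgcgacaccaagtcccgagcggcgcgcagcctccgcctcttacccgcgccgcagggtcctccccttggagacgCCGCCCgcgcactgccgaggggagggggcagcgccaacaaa
Col4a2: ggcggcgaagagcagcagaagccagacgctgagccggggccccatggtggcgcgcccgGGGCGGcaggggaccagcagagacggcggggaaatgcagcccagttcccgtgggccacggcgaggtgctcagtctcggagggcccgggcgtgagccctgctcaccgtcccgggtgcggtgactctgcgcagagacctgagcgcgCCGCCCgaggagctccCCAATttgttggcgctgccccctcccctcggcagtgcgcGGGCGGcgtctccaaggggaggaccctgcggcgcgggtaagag
The Col4a1 window held 1 GC box core and 1 CCAAT, and the Col4a2 window held 3 and 1. 1 GC box core is the same genomic site in both windows, and no CCAAT was shared. Windows were matched for 7 of the 10 genes, with 8 windows in all; Lama4, Lamc1 and Nid2 are only named. GGGCGG was in 6 of the 8 windows against 35.7% of 32851 windows of the same length, CCAAT in 5 of 8 against 37.4%, and TATAAA, the core of a TATA box, in 0 of 8 against 13.6%. These matches describe the letters only.

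The remaining genes are dispersed. On mm10, Col15a1 lies on chromosome 4 at 47208161 to 47313167 (plus) and Hspg2 on the same chromosome at 137468769 to 137570630 (plus). Col18a1 and Lama4 lie on chromosome 10 at 77052178 to 77166548 (minus) and 38965515 to 39110188 (plus). Lamb1 is on chromosome 12 at 31265234 to 31329644 (plus), Lamc1 on chromosome 1 at 153218922 to 153332786 (minus), Nid1 on chromosome 13 at 13437551 to 13512269 (plus) and Nid2 on chromosome 14 at 19751265 to 19811787 (plus).

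The kept cells fell into 18 clusters, made without the 10 genes among the variable genes. A cluster of 112 cells carried all 15 listed pericyte and smooth muscle markers and is called pericyte or smooth muscle-like, with 20 slie/slie injured, 59 control injured, 20 slie/slie uninjured and 13 control uninjured cells. Where pericytes or the pericyte class is written for short, this whole mixed class is meant. Its mixture of pericytes and smooth muscle cells differed between libraries, and most control uninjured cells were smooth muscle-like by their markers. A cluster of 97 cells carried all 12 endothelial markers and is called endothelial-like, with 5, 26, 49 and 17 cells. Mesenchymal (fibroblast)-like cells came in 4 clusters and numbered 102, 274, 77 and 5. Cluster 1 (19 slie/slie and 103 control injured cells), cluster 6 (26 and 61) and cluster 0 (56 and 109) lay mostly in the injured limbs, and cluster 8 held 67 slie/slie uninjured cells with at most 2 cells in any other library. Ratios were computed where both libraries had at least 10 cells; the control uninjured pericyte class (13) and endothelial class (17) and slie/slie injured cluster 1 (19) fall under 20. The 3 deepest cells held 67.6%, 30.5%, 31.8% and 65.2% of the pericyte class's UMIs in slie/slie injured, control injured, slie/slie uninjured and control uninjured limbs, so sums in the slie/slie injured and control uninjured libraries rest on few cells.

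Among populations with at least 10 cells in a library, the summed level of the 10 genes was highest in pericyte or smooth muscle-like cells of the injured limbs and next in control injured endothelial-like cells. In pericyte or smooth muscle-like cells their summed level was 7530 CPM (7025 to 8061) in slie/slie injured and 8405 CPM (8120 to 8699) in control injured limbs, against 1932 CPM (1692 to 2196) in slie/slie uninjured and 1508 CPM (1205 to 1865) in control uninjured limbs. In endothelial-like cells it was 4137 CPM (3761 to 4541) in the 5 slie/slie injured cells and 6213 CPM (6005 to 6426) in control injured limbs, against 1344 CPM (1206 to 1492) and 678 CPM (527 to 860) in slie/slie and control uninjured limbs. The intervals of injured and uninjured limbs do not overlap in either class, in either genotype. Mesenchymal-like cells of cluster 1 had 1303 CPM (1140 to 1483) in slie/slie injured and 1566 CPM (1483 to 1652) in control injured limbs, and cluster 8 had 1599 CPM (1488 to 1717) in the slie/slie uninjured limb. Schwann or glial-like cells of the uninjured limbs, which make a basement membrane of their own, had 1543 CPM (1264 to 1867) in 16 slie/slie cells and 847 CPM (517 to 1308) in 13 control cells. Populations of few cells reached like levels: a single slie/slie injured Schwann or glial-like cell had 8574 CPM (6588 to 10970), and the 5 control uninjured mesenchymal-like cells, of which 3 held 94.4% of the UMIs, had 5503 CPM (4413 to 6780).

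Leukocytes held almost none of these transcripts. Neutrophil-like cells had 0 of 76516 UMIs in slie/slie injured limbs and 9 UMIs, or 40.3 CPM (18.4 to 76.6), in control injured limbs. Monocyte or macrophage-like cells had 0 UMIs in 16 slie/slie injured cells and 28 UMIs, or 36.6 CPM (24.3 to 52.9), in 114 control injured cells. Lamc1 gave 14 of these 28 UMIs, which is 3.95% of that library's Lamc1 UMIs, while Col4a1 gave 7, or 0.211% of its UMIs. Apart from this Lamc1 signal, levels of this size were read as background, which was not tested. Keratinocyte-like cells of the control injured limb had 81.0 CPM (51.3 to 121), of which Col18a1, also a gene of epithelial basement membranes, gave 16 of 23 UMIs.

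**Figure D1:**
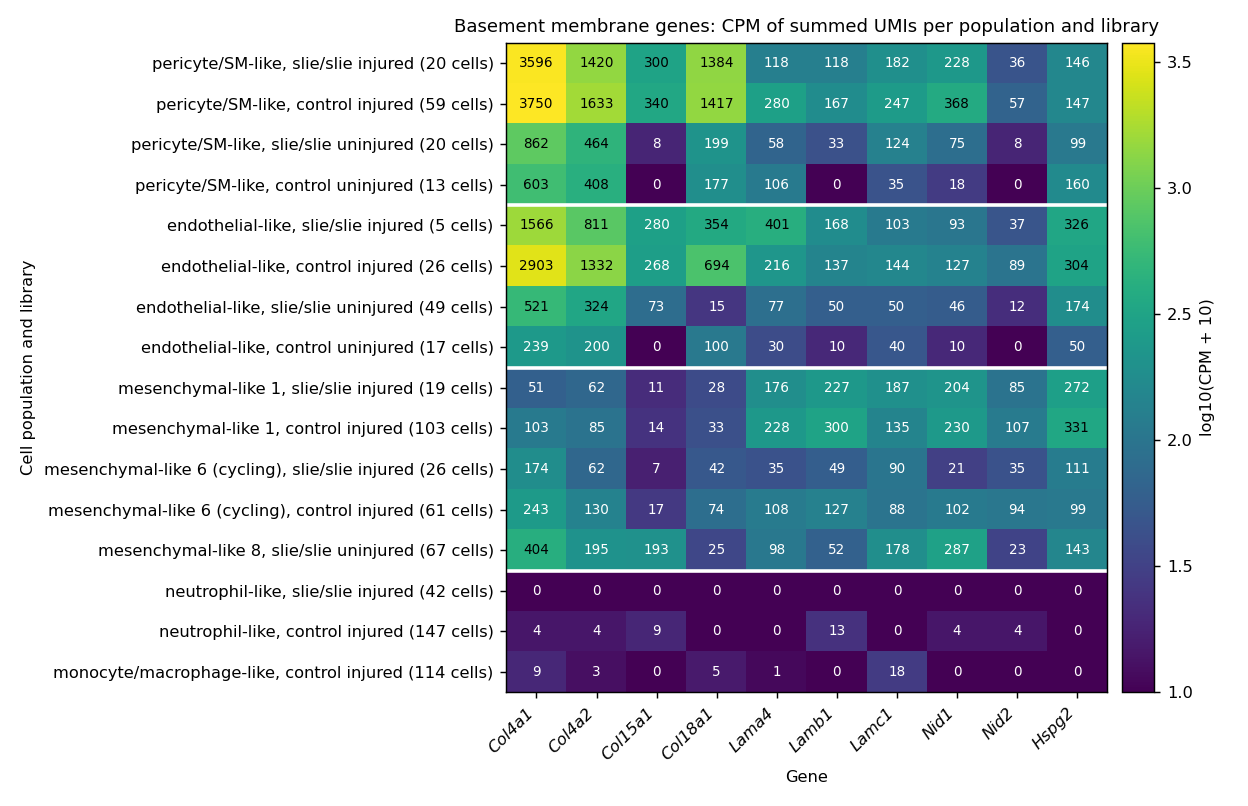
Level of each of the 10 genes (columns) in each cell class and library (rows), in CPM printed in the cells, with the colour on a log10(CPM + 10) scale. Col4a1 reaches 3596 and 3750 CPM in injured slie/slie and control pericyte or smooth muscle-like cells, against 862 and 603 CPM in their uninjured counterparts.

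The collagen IV genes led in both vessel classes. Col4a1 stood at 3596 CPM (395 UMIs) in slie/slie injured and 3750 CPM (1458 UMIs) in control injured pericyte or smooth muscle-like cells, against 862 CPM (104 UMIs) and 603 CPM (34 UMIs) in slie/slie and control uninjured ones. In endothelial-like cells Col4a1 had 1566 CPM (168 UMIs) and 2903 CPM (1573 UMIs) in slie/slie and control injured limbs, against 521 CPM (135 UMIs) and 239 CPM (24 UMIs) in slie/slie and control uninjured limbs. Injured libraries are thus above uninjured ones in both classes, with no overlap of the intervals. Col4a2 gave 1420, 1633, 464 and 408 CPM in the pericyte class of slie/slie injured, control injured, slie/slie uninjured and control uninjured limbs, and 811, 1332, 324 and 200 CPM in the endothelial class.

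Because 3′ capture differs between genes, the ratio of Col4a2 to Col4a1 UMIs is no measure of chain stoichiometry, but it can be set side by side across populations. In pericyte or smooth muscle-like cells it was 0.395 (0.326 to 0.477) in slie/slie injured and 0.436 (0.396 to 0.478) in control injured limbs, against 0.538 (0.382 to 0.752) and 0.676 (0.380 to 1.18) in slie/slie and control uninjured limbs. In endothelial-like cells the ratio was 0.518 (0.395 to 0.675) and 0.459 (0.420 to 0.502) in slie/slie and control injured limbs, against 0.622 (0.468 to 0.823) and 0.833 (0.437 to 1.57) in slie/slie and control uninjured limbs. All 8 values lie below 1, and the intervals of the 2 limbs overlap in each genotype and class. Cluster 1 of the mesenchymal-like cells had 1.22 (0.460 to 3.34) in slie/slie injured and 0.820 (0.594 to 1.13) in control injured limbs, and the control value lies above the interval of control injured pericytes.

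Col18a1 and Col15a1 encode the collagens XVIII and XV, which carry glycosaminoglycan chains; fragments of both inhibit vessel growth. Col18a1 had 1384 and 1417 CPM in slie/slie and control injured pericyte or smooth muscle-like cells, against 199 and 177 CPM in slie/slie and control uninjured ones. In endothelial-like cells it had 354 and 694 CPM in slie/slie and control injured limbs, against 15.4 and 99.8 CPM in slie/slie and control uninjured limbs. The uninjured endothelial values rest on 4 and 10 UMIs. Col15a1 had 300 and 340 CPM (33 and 132 UMIs) in slie/slie and control injured pericyte or smooth muscle-like cells, against 8.29 CPM (1 UMI) and 0 in slie/slie and control uninjured ones. Outside the vessel classes it had 193 CPM (155 to 236; 92 UMIs) in cluster 8, the fibroblasts of the slie/slie uninjured limb. In the control uninjured library, 24 of its 25 UMIs came from the mesenchymal class and from 1 cell of it.

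The laminin chain genes were divided. In control injured limbs Lamb1 was higher in cluster 1 fibroblasts than in the pericyte class, while Lama4 and Lamc1 were lower. In slie/slie injured limbs each was higher in cluster 1, Lamc1 only slightly. Lama4, Lamb1 and Lamc1 encode the alpha, beta and gamma chains of a laminin of vessels, muscle and fat. Lamb1 reached 227 CPM (162 to 309) in slie/slie injured and 300 CPM (264 to 339) in control injured cluster 1 fibroblasts, compared with 118 CPM (63.0 to 202) and 167 CPM (129 to 213) in the pericyte class of the same limbs. The control interval of cluster 1 lies above that of the pericyte class, while those of slie/slie overlap. Lama4 had 176 and 228 CPM in slie/slie and control injured cluster 1, with 118 and 280 CPM in the pericyte class and 401 and 216 CPM in the endothelial class of the same limbs. Lamc1 had 187 and 135 CPM in slie/slie and control injured cluster 1 and 182 and 247 CPM in the pericyte class.

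Nid1, the linker of laminin and collagen IV, had 204 and 230 CPM in slie/slie and control injured cluster 1 and 228 and 368 CPM in pericyte or smooth muscle-like cells of these limbs. Its level in cluster 8 was 287 CPM (241 to 339). Nid2, its paralog, had fewer UMIs in the same classes, at 85.0 and 107 CPM in slie/slie and control injured cluster 1, 36.4 and 56.6 CPM in the pericyte class, and 23.1 CPM in cluster 8. Hspg2, which encodes the heparan sulfate proteoglycan perlecan, had 272 and 331 CPM in slie/slie and control injured cluster 1, 326 and 304 CPM in endothelial-like cells, and 146 and 147 CPM in pericyte or smooth muscle-like cells. In control injured limbs the Hspg2 intervals of cluster 1 (294 to 372) and of endothelial-like cells (260 to 355) lie above that of pericyte or smooth muscle-like cells (111 to 190).

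Over whole libraries, the cell classes contributed unequally. In control injured limbs, endothelial-like cells held 13.4% of all UMIs and 38.6% of those of the 10 genes, pericyte or smooth muscle-like cells held 9.64% and 37.5%, and mesenchymal-like cells 34.9% and 22.7%. For Col4a1 alone the endothelial and pericyte classes held 47.5% and 44.0%, and the mesenchymal class 8.14%. For Lamb1 (67.6%, 63.1 to 71.9), Nid2 (64.1%), Hspg2 (59.6%), Nid1 (55.02%) and Lama4 (51.2%, 46.7 to 55.8) the mesenchymal class held the majority. In slie/slie injured limbs, pericyte or smooth muscle-like cells held 45.8% of the UMIs of the 10 genes with 10.9% of all UMIs. Mesenchymal-like cells held 25.3% of the UMIs of the 10 genes with 41.3% of all UMIs. Their share was the majority for Nid2 (73.7%), Lamc1 (61.6%), Nid1 (61.3%), Lamb1 (55.3%) and Hspg2 (54.9%). In slie/slie uninjured limbs, mesenchymal-like cells held 53.0% of the 10 genes' UMIs with 49.5% of all UMIs, including 79.3% of Col15a1 and 85.1% of Nid1. These shares depend on which cells left the tissue in a 20 minute digest and passed a 40 micron strainer, and fewer cells of a type and less RNA per cell cannot be told apart in them.

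The make-up of the transcripts differed between cell classes. Collagen IV gave 66.6% of the 10 genes' UMIs in slie/slie injured, 64.0% in control injured, 68.7% in slie/slie uninjured and 67.1% in control uninjured pericyte or smooth muscle-like cells, and between 57.4% and 68.2% in the 4 endothelial samples. In cluster 1 fibroblasts it gave 8.70% (5.39 to 13.1) in slie/slie injured and 12.03% (10.3 to 13.9) in control injured limbs. There the laminin chains gave 45.2% (38.7 to 51.9) and 42.3% (39.7 to 45.01), the nidogens 22.2% and 21.5%, and perlecan 20.9% and 21.2%. The slie/slie and control profiles of cluster 1 overlapped in their intervals for laminins and collagen IV. In cluster 0 collagen IV gave 8 of 51 UMIs of the 10 genes in slie/slie injured cells (15.7%, 7.02 to 28.6). It gave 46 of 93 in control injured cells (49.5%, 38.9 to 60.03). These intervals do not overlap, but they cover counting error in 1 library each. In this cluster the Col4a1 ratio between genotypes had an interval that includes 1, and the summed ratio changed sign between processing settings. Cluster 6, whose leading genes include the cell cycle genes Cdk1 and Top2a, lay between, with collagen IV at 37.8% and 34.4% in slie/slie and control injured limbs, and cluster 8 had 37.5% in the slie/slie uninjured limb. Col15a1 and Col18a1 together gave 22.4% and 20.9% in slie/slie and control injured pericytes, against 10.7% and 11.8% in slie/slie and control uninjured ones.

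**Figure D2:**
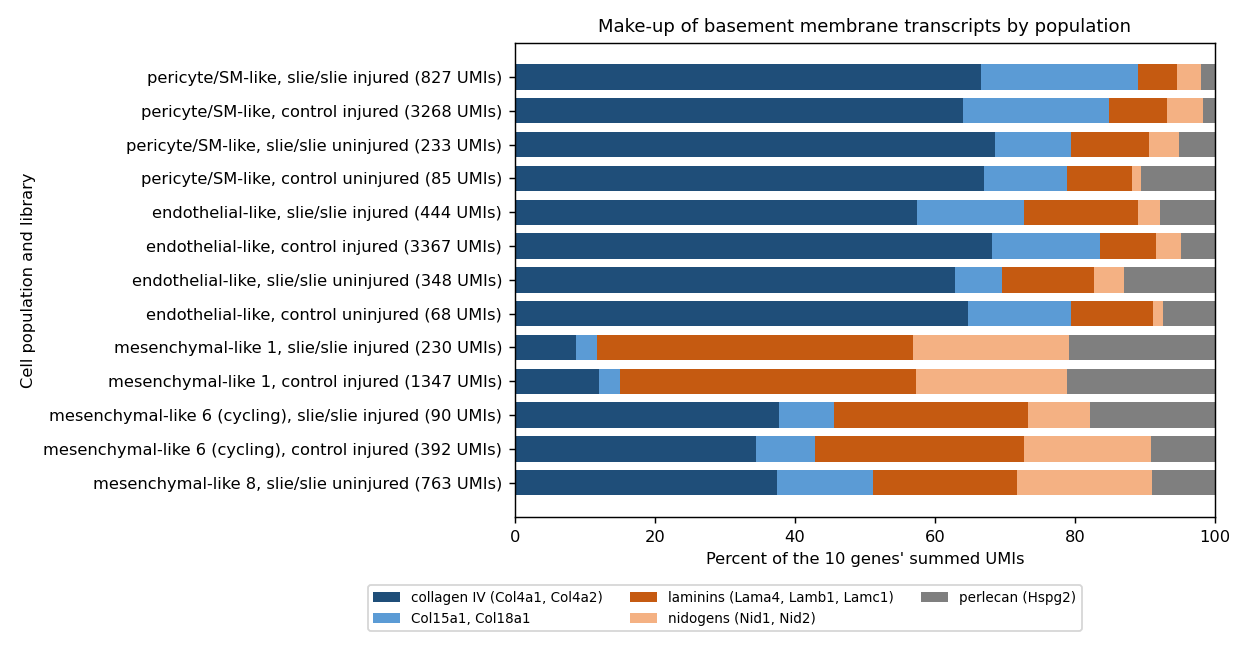
Share of the 10 genes' UMIs (percent, horizontal axis) given by collagen IV, collagens XV and XVIII, the 3 laminin chains, the 2 nidogens and perlecan, in each cell class and library. Collagen IV fills between 57.4% and 68.7% of the bars of vessel classes and 8.70% and 12.03% of the bars of slie/slie and control injured cluster 1.

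Injury was compared first in control mice, in pericyte or smooth muscle-like cells, by the ratio of CPM with 1 UMI added to each sum. A gene needed 20 UMIs over both libraries to be measured, and a ratio of 1.5-fold in either direction to be counted as higher or lower. Col4a1 was 6.04-fold higher in injured than uninjured limbs (4.32 to 8.71), Col4a2 3.84-fold (2.56 to 6.04) and Col18a1 7.27-fold (4.03 to 14.7). Of Col15a1 there were 132 UMIs in the injured and 0 in the uninjured limb, at least 6.38-fold higher against a floor of 3 UMIs, and of Lamb1 65 and 0, at least 3.14-fold higher. Nid1 (143 and 1 UMIs) was 10.4-fold higher (2.84 to 87.0), Lamc1 (96 and 2 UMIs) 4.69-fold (1.56 to 23.1) and Lama4 2.28-fold (1.07 to 5.80). Nid2 had 22 and 0 UMIs, at least 1.06-fold higher. Hspg2 was not counted as higher: it had 147 CPM (57 UMIs) in control injured and 160 CPM (9 UMIs) in control uninjured limbs, a ratio of 0.84 (0.43 to 1.85). That interval overlaps those of Lama4 and Lamc1. With each cell thinned to 500 UMIs, the log2 ratios were -0.18 for Lama4 and -0.60 for Lamb1. These signs cannot show a reversal. Few UMIs remain after thinning, and the 1 UMI added to each sum weighs more in the uninjured library, which has fewer cells. Lamb1 had 0 UMIs there before thinning.

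With 1 UMI added, 9 of the 10 genes were higher and 0 lower, where 33.0% of 3738 measured genes were higher and 23.4% lower. With the genes at 0 set at their bound, 8 of the 10 were higher. The median log2 ratio of the 10 genes was 2.41, or 2.08 with the bounds, beside 0.10 over all measured genes. Intervals of 8 genes lay above 1. In the uninjured library 1 cell gave 18 of the 34 Col4a1 UMIs and 69.6% of the Col4a2 UMIs. The make-up of the class also differed between limbs: its contractile genes summed to 13735 CPM in control injured and 78551 CPM in control uninjured cells, and its pericyte genes to 6152 and 1136 CPM, with Higd1b at 0 in the uninjured cells. The list of 14 mesenchymal markers, which includes Col1a1 and Col3a1, summed to 13755 CPM (12 genes detected, Dpp4 and Mfap5 at 0) in control injured and 1526 CPM (10 detected, Pdgfra among those at 0) in control uninjured cells. The part of the mesenchymal markers was not tested. Among cells with a Myh11 UMI, a smooth muscle gene, the log2 ratio of the summed 10 genes was 2.31 (2.00 to 2.64; 24 injured and 13 uninjured cells), and among cells with an Rgs5 UMI, a pericyte gene, 3.40 (2.72 to 4.19; 52 and 3 cells), beside 2.46 in the whole class. Every uninjured cell thus had a Myh11 UMI and 3 had an Rgs5 UMI, so the whole-class ratio sets unlike mixtures side by side. The part of this mixture was not tested. Of 12 endothelial markers 4 and 1 were detected, at 332 and 231 CPM, with Pecam1 and Cdh5 at 0 in both.

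In control endothelial-like cells all 10 genes were higher in the injured limb. Col4a1 was 11.6-fold higher in injured than uninjured limbs (7.86 to 18.1), Col4a2 6.37-fold (4.13 to 10.4) and Col18a1 6.34-fold (3.503 to 12.8). Perlecan, whose gene was not higher in the pericyte class, had 304 CPM in injured and 49.9 CPM in uninjured endothelial-like cells, 5.12-fold higher (2.30 to 14.1). Lamb1 was 6.94-fold higher (1.85 to 58.3), Nid1 6.47-fold (1.73 to 54.5), Lama4 5.46-fold (2.08 to 20.4) and Lamc1 2.92-fold (1.20 to 9.25), each against 1 to 4 UMIs in the uninjured library. Col15a1 had 145 and 0 UMIs, at least 8.94-fold higher, and Nid2 48 and 0, at least 2.96-fold higher. All 10 were counted as higher, beside 26.1% of 4786 measured genes higher and 23.0% lower, with a median log2 ratio of 2.68 (2.67 with bounds) beside 0.04. With cells thinned to 500 UMIs, the log2 ratios of Nid1 and Nid2 were -0.12 and -0.70. These signs cannot show a reversal. The uninjured library held 1 and 0 UMIs of them before thinning, and the 1 UMI added to each sum weighs more in that library, which has fewer cells. The log2 ratio of the summed genes was 3.17, and it was 2.36 without called doublets, 2.69 thinned and 2.46 without the 3 deepest cells of each library. Median depth was 17632.5 UMIs per cell in the injured and 1635 in the uninjured endothelial-like cells, and the median mitochondrial share 0.974% and 2.19%; without cells under 0.5% mitochondrial UMIs the log2 ratio of the summed genes was 3.18, beside 3.17. Endothelial markers summed to 6475 and 7781 CPM, with all 12 detected in both, and mesenchymal markers to 207 and 329 CPM (8 and 7 of 14 detected, Pdgfra at 0 in both).

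In slie/slie mice the pericyte class gave the same direction. Col4a1 was 4.14-fold higher in injured than uninjured limbs (3.33 to 5.19), Col4a2 3.02-fold (2.22 to 4.17), Col18a1 6.72-fold (4.38 to 10.7) and Nid1 2.86-fold (1.33 to 6.64). Col15a1 had 33 and 1 UMIs, 18.7-fold higher (4.79 to 160). Lama4 (1.92-fold, 0.75 to 5.29), Lamc1 (1.44-fold, 0.72 to 2.95) and Hspg2 (1.44-fold, 0.66 to 3.21) had intervals that include 1. Lamb1 (13 and 4 UMIs) and Nid2 (4 and 1 UMIs) were not measured. Of 8 measured genes 6 were higher and 0 lower, beside 24.7% and 24.5% of 1979 measured genes, and the median log2 ratio was 1.56 beside 0.02. Contractile genes summed to 30865 and 40162 CPM in slie/slie injured and uninjured pericytes, pericyte genes to 5144 and 3673 CPM, and the mesenchymal list to 14567 CPM (11 of 14 detected) and 1053 CPM (10 of 14 detected); the part of the mesenchymal markers was not tested. Among cells with a Myh11 UMI the log2 ratio of the summed genes was 1.66 (1.43 to 1.89; 8 and 19 cells), and among cells with an Rgs5 UMI 2.08 (1.81 to 2.37; 20 and 13 cells), beside 1.96. The slie/slie endothelial class had only 5 injured cells, so its levels (Col4a1 1566 CPM injured, 521 CPM uninjured) are given without a ratio. Whether the response to injury differs between genotypes was not tested.

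**Figure D3:**
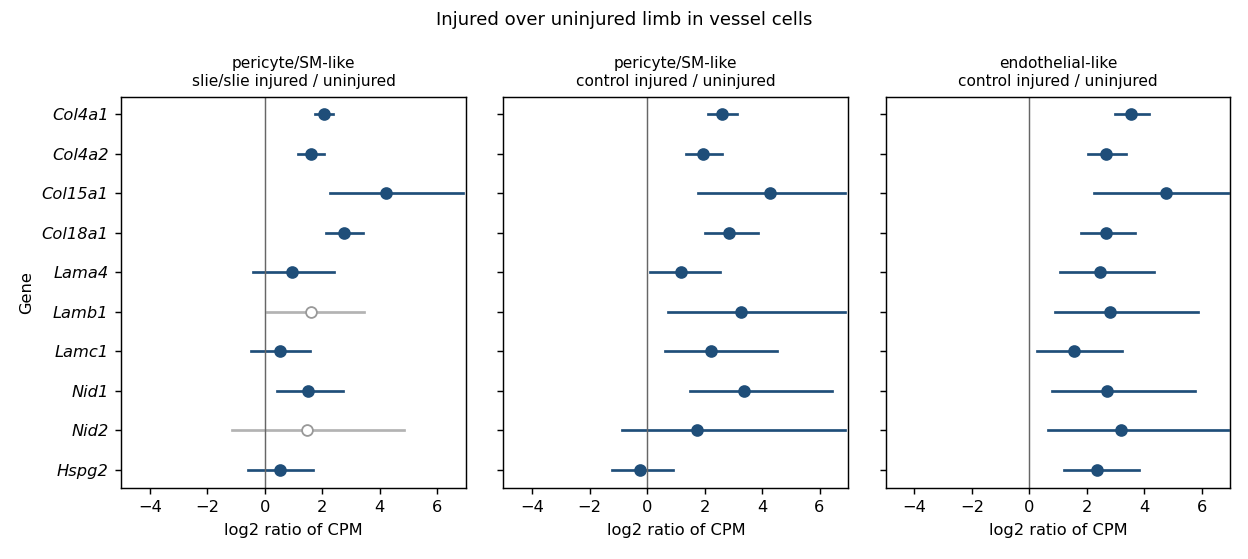
Log2 ratio of CPM, injured over uninjured (horizontal axis, 95% counting interval), for the 10 genes in 3 panels: control pericyte or smooth muscle-like, control endothelial-like and slie/slie pericyte or smooth muscle-like cells. Open grey points have under 20 UMIs over both libraries, and intervals that pass the axis limit run on; the points lie right of 0 in all panels except Hspg2 in control pericytes (ratio 0.84).

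The difference was also present per cell. The median of the summed Col4a1 and Col4a2 was 6055 CPM per cell in slie/slie injured (n = 20 cells) and 4702 CPM in control injured (n = 59) pericyte or smooth muscle-like cells, against 735 CPM (n = 20) and 664 CPM (n = 13) in slie/slie and control uninjured cells. In endothelial-like cells the medians were 3111 CPM (n = 5) and 3355 CPM (n = 26) in slie/slie and control injured limbs, against 875 CPM (n = 49) and 176 CPM (n = 17) in slie/slie and control uninjured limbs. Cells varied widely within a library, with quartiles of 1505 and 8197 CPM in control injured pericytes and 103 and 1449 CPM in control uninjured ones.

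Depth differed between libraries, so each cell was also thinned to 500 UMIs. A Col4a1 UMI was then found in 13 of 18 slie/slie injured pericyte or smooth muscle-like cells (72.2%, 46.5 to 90.3) and 40 of 59 control injured ones (67.8%, 54.4 to 79.4), against 7 of 20 slie/slie uninjured (35%, 15.4 to 59.2) and 2 of 13 control uninjured cells (15.4%, 1.92 to 45.4). Unthinned shares were 80.0%, 84.7%, 75% and 53.8% in the same order. In endothelial-like cells the thinned shares were 73.1% (52.2 to 88.4) in control injured, 30.6% (18.3 to 45.4) in slie/slie uninjured and 25% (7.27 to 52.4) in control uninjured limbs, with unthinned shares of 96.2%, 77.6% and 58.8%. Control injured neutrophil-like cells, in which almost no Col4a1 UMIs were found, had 1 of 147 (0.68%) with and without thinning, at a median depth of 1215 UMIs.

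**Figure D4:**
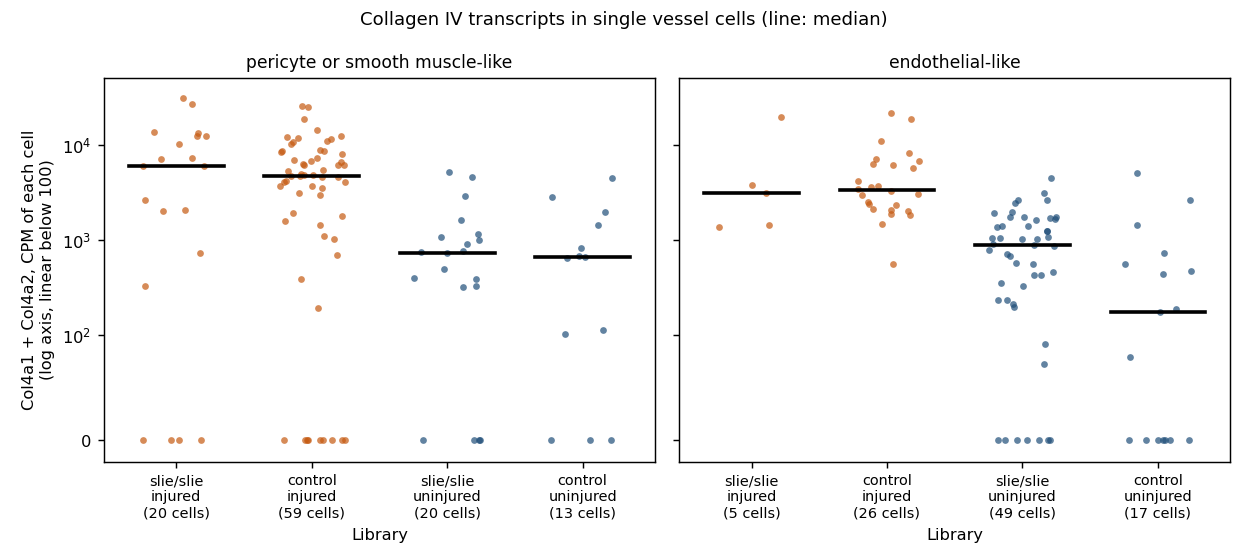
Col4a1 plus Col4a2 per cell, in CPM (vertical axis, symmetric log scale, linear below 100), for pericyte or smooth muscle-like and endothelial-like cells of each library. Points are cells and lines are medians (6055, 4702, 735 and 664 CPM in slie/slie injured, control injured, slie/slie uninjured and control uninjured pericytes); injured cells lie mostly above uninjured ones.

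In fibroblasts the genes went in both directions. Injured and uninjured limbs held different fibroblast clusters (0, 1 and 6 against 8), so the comparison in slie/slie mice sets different populations side by side, and the control uninjured limb had too few mesenchymal cells (5) for one. In slie/slie mice, Col4a1 had 158 CPM in injured and 367 CPM in uninjured mesenchymal-like cells, a ratio of 0.44 (0.33 to 0.58). Col4a2 (0.49, 0.33 to 0.72), Nid1 (0.62, 0.46 to 0.84) and Col15a1 (4 and 92 UMIs; 0.07, 0.02 to 0.17) were also lower in the injured limb. Nid2 (2.90, 1.46 to 6.08), Col18a1 (2.32, 1.16 to 4.83) and Lamb1 (2.15, 1.36 to 3.45) were higher. Lama4, Lamc1 and Hspg2 had intervals that include 1. With 3 genes higher and 4 lower of 10, beside 23.5% and 20.2% of 5865 measured genes, the median log2 ratio was -0.01 beside 0.07.

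Over all filtered cells the injury ratios in control mice were 2.85 for Col4a1 (2.25 to 3.67), 2.76 for Lamb1 (1.49 to 5.79), 2.45 for Col18a1 (1.65 to 3.81) and 1.00 for Hspg2 (0.71 to 1.45). Of the 10 genes 5 were higher and 0 lower, beside 26.0% and 31.4% of 10959 measured genes. The log2 ratio of the summed genes, 0.94, fell to 0.49 without called doublets and 0.10 with cells weighted equally, and turned to -0.31 with cells thinned to 500 UMIs. In slie/slie mice Col18a1 had 225 CPM over all injured and 41.9 CPM over all uninjured cells, 5.26-fold higher (3.83 to 7.37), while Col4a1 was 1.46-fold higher (1.30 to 1.65), and 3 of 10 were higher and 0 lower beside 20.0% and 22.8% of 9221 genes. Between genotypes over all filtered cells, 0 of 10 were higher or lower in the injured limb, beside 13.8% higher and 13.0% lower of 11313 genes. In the uninjured limb 2 were higher (Col4a1 and Nid1) and 1 lower (Col18a1, 41.9 CPM in slie/slie and 98.8 CPM in control), beside 20.1% higher and 20.8% lower of 7490 genes. Neither direction of the summed genes held between genotypes: the log2 ratio was -0.28 in the injured and 0.29 in the uninjured limb, and 0.17 and -0.31 with cells thinned.

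The genotype comparison in the injured limb gave mostly small differences in pericyte or smooth muscle-like cells. Col4a1 was at 0.96 of control in slie/slie cells (0.86 to 1.07), Col4a2 at 0.87 (0.73 to 1.04), Col18a1 at 0.98 (0.81 to 1.18), Col15a1 at 0.90 (0.60 to 1.33) and Hspg2 at 1.04 (0.57 to 1.81). Lama4 had 13 UMIs (118 CPM) in slie/slie and 109 UMIs (280 CPM) in control injured cells, a ratio of 0.45 (0.24 to 0.79). Nid1 had 25 UMIs (228 CPM) and 143 UMIs (368 CPM), a ratio of 0.64 (0.40 to 0.98). These 2 were the only genes counted as lower, and 0 were higher, beside 17.9% lower and 15.7% higher of 4076 measured genes. The log2 ratios of Lama4 and Nid1 turned to 0.081 and 0.077 when the 3 deepest cells of each library were left out. The median log2 ratio of the 10 genes was -0.29 beside -0.02. That of their sum was -0.16, and it turned to 0.43 with cells thinned to 500 UMIs, 0.38 with cells weighted equally and 0.55 without the 3 deepest cells.

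Fibroblasts of the injured limb were compared cluster by cluster. In cluster 1 all 10 ratios had intervals that include 1, and of 9 measured genes 0 were higher and 1 (Col4a1, 0.54, 0.25 to 1.04) was lower, beside 16.9% and 16.8% of 6193 genes. In cluster 6 Nid1 (3 and 37 UMIs; 0.26, 0.07 to 0.74), Lama4 (5 and 39 UMIs; 0.38, 0.13 to 0.90) and Lamb1 (7 and 46 UMIs; 0.43, 0.17 to 0.92) were lower in slie/slie cells. Of 9 measured genes 0 were higher and 6 lower, beside 14.9% and 21.6% of 3661 measured genes, and the median log2 ratio was -0.93 beside -0.01. The 3 deepest cells held 65.9% and 49.6% of that cluster's UMIs in slie/slie and control injured limbs. With cells thinned to 500 UMIs the log2 ratios of Nid1, Lama4 and Lamb1 were 1.41, 0.82 and 0.41. These signs cannot show a reversal. Few UMIs remain after thinning, and the 1 UMI added to each sum weighs more in the slie/slie library, which has fewer cells. In cluster 0 only Col4a1 was measured (0.47, 0.16 to 1.13), beside 16.3% higher and 15.7% lower of 1672 genes. With the mesenchymal clusters joined, Lamb1 (0.58, 0.42 to 0.77) and Lama4 (0.67, 0.48 to 0.91) were lower and Lamc1 was at 1.14 (0.82 to 1.56); 3 genes were counted as lower and 0 as higher, beside 15.4% and 13.8% of 8043 genes. Cluster 1 made up 19 of the 102 slie/slie and 103 of the 274 control cells of that joined class, so the joined ratios also carry the unequal shares of the clusters, whose part was not tested.

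In the uninjured limb the genotype comparison rests on the 60 control cells, and its values depend on few of them. In pericyte or smooth muscle-like cells Col4a1 had 862 CPM in slie/slie and 603 CPM in control limbs, a ratio of 1.40 (0.95 to 2.12), and of 4 measured genes 0 were higher and 1 was lower (Hspg2, 0.61, 0.25 to 1.55), beside 18.1% and 14.6% of 1480 genes. In endothelial-like cells Col4a1 was 2.11-fold higher in slie/slie limbs (1.37 to 3.37) and Hspg2 2.97-fold (1.26 to 8.5), while Col4a2 (1.57, 0.96 to 2.66) and Lama4 (2.03, 0.69 to 8.14) had intervals that include 1. All 4 measured genes were higher, beside 16.6% higher and 18.3% lower of 2852 measured genes. Below the limit of 20 UMIs, Col15a1 had 19 and 0 UMIs, at least 2.45-fold higher in slie/slie, and Col18a1 had 4 and 10 UMIs, a ratio of 0.18 (0.05 to 0.55). Hemoglobin and other erythroid markers summed to 20347 CPM in slie/slie and 429 CPM in control endothelial-like cells. With hemoglobin left out of the totals the log2 ratio of the summed 10 genes was 1.00 (0.62 to 1.39), beside 0.97 (0.59 to 1.36). It was 0.18 (-0.24 to 0.62) without called doublets, which left 12 control cells, 0.23 with cells thinned to 500 UMIs, 0.40 with cells weighted equally and 0.054 without the 3 deepest cells of each library. Thinned, Hspg2 had a log2 ratio of -1.20, which rests on few UMIs with 1 added to each sum.

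**Figure D5:**
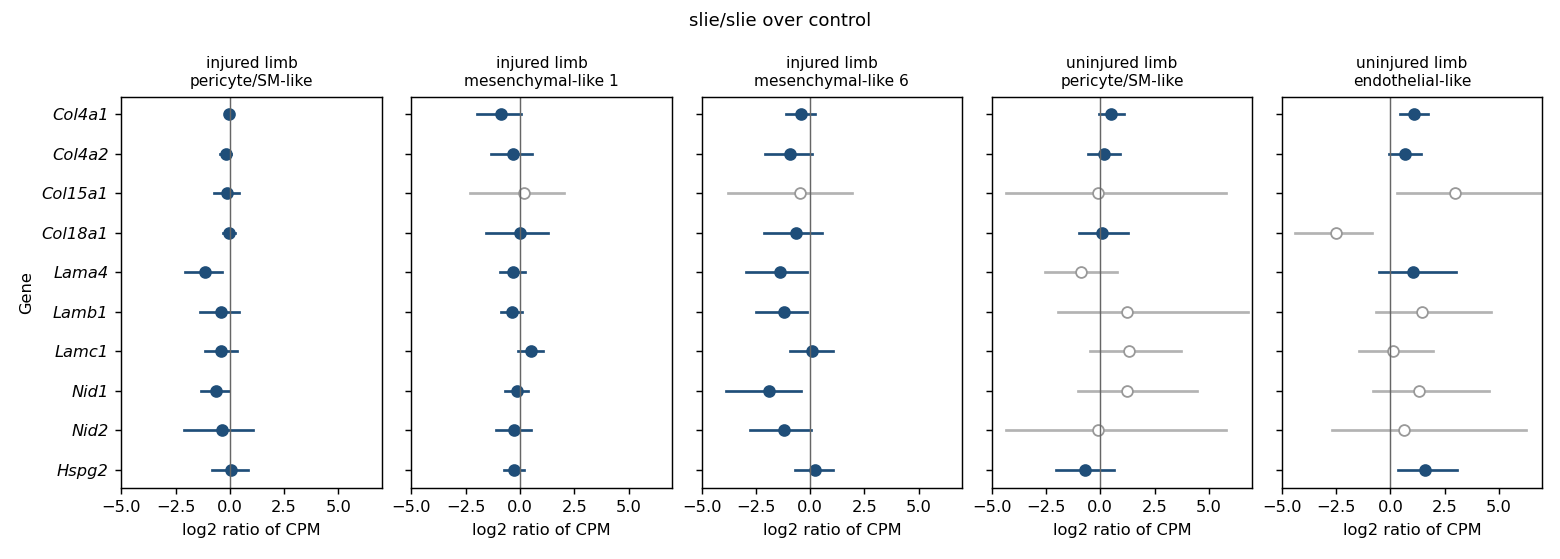
Log2 ratio of CPM, slie/slie over control (horizontal axis, 95% counting interval), for the 10 genes in 5 panels by cell class and limb. Open grey points have under 20 UMIs over both libraries; in injured pericytes the ratios of Col4a1, Col4a2 and Col18a1 (0.96, 0.87 and 0.98) sit at 0 on the log2 scale within their intervals.

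Genes that act on the same matrix were read from 6 lists, and each count is to be read beside the share of all measured genes. With injury, 33.0% were higher and 23.4% lower in control pericytes, 26.1% and 23.0% in control endothelial-like cells, 24.7% and 24.5% in slie/slie pericytes, and 23.5% and 20.2% in slie/slie mesenchymal-like cells. Of folding and crosslinking genes, 8 of 12 measured were higher and 1 lower in control injured against uninjured pericyte or smooth muscle-like cells (5 higher with genes at 0 set at their bound), 6 of 9 higher and 0 lower in control endothelial-like cells, and 3 of 4 higher and 0 lower in slie/slie pericytes. Serpinh1, the collagen chaperone HSP47, had 1145 CPM in injured and 124 CPM in uninjured control pericyte or smooth muscle-like cells, 8.08-fold higher (4.07 to 18.8). It was 2.96-fold higher (2.05 to 4.38) in the same class of slie/slie mice and 7.01-fold (3.77 to 14.7) in control endothelial-like cells. P4hb, a subunit of prolyl hydroxylase, was 6.12-fold higher (2.35 to 22.7) and Loxl2, which crosslinks collagen IV, 7.61-fold (2.05 to 63.7) in control pericytes. Crtap, a partner of prolyl 3-hydroxylase, stood at 1.03 (0.53 to 2.24). Between genotypes in the injured limb, 5 of 12 were lower and 0 higher in slie/slie pericytes, beside 17.9% lower and 15.7% higher of all measured genes, among them P4hb at 0.55 (0.35 to 0.83), while Serpinh1 stood at 0.86 (0.69 to 1.06).

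Receptors and other chains were divided. Bcam, which binds the laminin alpha chain encoded by Lama5, had 139 CPM in injured and 586 CPM in uninjured control pericytes, a ratio of 0.23 (0.15 to 0.37), and 0.23 (0.15 to 0.35) in control endothelial-like cells and 0.41 (0.25 to 0.66) in slie/slie pericytes. Lama5 itself had 28.3 and 195 CPM in control injured and uninjured pericytes, a ratio of 0.15 (0.06 to 0.35) at 11 UMIs each. Itga1, the alpha subunit of a collagen IV-binding integrin, was 3.40-fold higher (1.61 to 8.58) in control and 3.29-fold (1.80 to 6.36) in slie/slie injured pericytes, and Itgb1, its beta partner, 1.92-fold (1.49 to 2.51) and 1.72-fold (1.42 to 2.08). Dag1, encoding dystroglycan, was at 1.06 (0.54 to 2.30) and 0.84 (0.45 to 1.57). By count, 3 of 5 measured receptors were higher and 1 lower in control pericytes, 1 of 6 higher and 3 lower in control endothelial-like cells, and 2 of 5 higher and 1 lower in slie/slie pericytes, beside 33.0%, 26.1% and 24.7% higher and 23.4%, 23.0% and 24.5% lower among all genes. Of the other chains, 1 of 3 measured was higher and 1 lower in control pericytes (0 higher with the bound), and in slie/slie mesenchymal-like cells 4 of 4 were lower in the injured limb, beside 20.2% of all measured genes, with Lama2, the alpha chain around muscle fibres, at 14.4 and 125 CPM, a ratio of 0.13 (0.05 to 0.29).

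Among associated proteins, Sparc, which binds collagen IV, had 5941 CPM in injured and 1561 CPM in uninjured control pericytes, 3.76-fold higher (3.05 to 4.71), and was 2.86-fold higher (2.50 to 3.28) in control endothelial-like cells. Egfl7, an endothelial matrix protein, stood at 0.94 (0.78 to 1.13) in control endothelial-like cells. The list as a whole had 2 of 4 measured higher and 2 lower in control pericytes, beside 33.0% higher and 23.4% lower among all genes. In control endothelial-like cells 2 of 6 were higher and 0 lower, beside 26.1% and 23.0%. Of turnover genes, Mmp14, a membrane-bound collagenase, was 9.52-fold higher (3.21 to 46.6) in control and 4.67-fold (2.45 to 9.62) in slie/slie injured pericytes, and 4 of 7 measured were higher and 2 lower in control pericytes, beside 33.0% and 23.4%. Fibrillar collagen genes, listed for contrast, were higher for 5 of 5 in control and 5 of 5 in slie/slie injured pericytes, beside 33.0% and 24.7%, with Col1a1 at 5262 and 319 CPM in control injured and uninjured cells, 15.6-fold higher (9.97 to 26.0). In control endothelial-like cells 1 of 3 measured fibrillar genes was higher and 1 lower.

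Across the 24 pairs of population and library with at least 10 cells, pairs of the 10 genes varied in how closely their levels went together. On log2(CPM + 10), Pearson's r was 0.94 for Col4a1 with Col4a2, 0.92 for Lamc1 with Hspg2, 0.90 for Lamb1 with Nid1 and 0.89 for Lama4 with Nid1. Col4a1 also had 0.89 with Lamc1, 0.88 with Hspg2 and 0.87 with Col18a1. Lamb1 had 0.85 with Nid2 and 0.66 with Lamc1. The values were 0.44 for Col4a1 with Nid2 and 0.37 for Col18a1 with Nid2. The genes closest to the summed level of the 10 were Fermt2 (0.93), Nedd4 (0.92), Sparc (0.92), Cald1 (0.88), Cdc42bpa (0.88) and Thra (0.87). These are descriptions: the 24 points share 4 libraries, with their depth and free RNA, and are not independent.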

How the data were processed

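Hindlimb cells were profiled by droplet single-cell RNA sequencing of transcript 3′ ends. The deposited counts are raw UMIs per gene and barcode, which the authors made, per the file headers, using Cell Ranger 5.0.1 on the mm10 build, per the submitters' processing notes; the 4 matrices name 27998 genes and had no columns outside the 4 libraries. UMIs count transcript ends, so levels were given per 1000000 UMIs (CPM) and not divided by transcript length. Barcodes under 200 genes or over 20% mitochondrial UMIs were dropped, and the rest clustered with scanpy 1.11.5 (2000 variable genes without the 10 described, 30 components, 15 neighbours, Leiden resolution 1, leidenalg 0.10.2) in Python 3.11.15, without integration of libraries. Clusters were named from fixed markers of 19 cell types (3 detected markers or more where 1 was among the cluster's 10 leading genes, otherwise 5 or more). 1 cluster of 39 cells with 7 fibroblast markers stayed unnamed, because none of its leading genes was a marker and its median UMIs in 1 library were 0.310 of that library's median. Called doublets were kept in the main values and left out in an alternative; the caller marked 2, 0, 4 and 14 cells in slie/slie injured, control injured, slie/slie uninjured and control uninjured limbs, so it found none in the largest library.

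UMIs were summed over the cells of a population in each library. Levels have exact Poisson intervals, shares exact Clopper-Pearson intervals, and ratios exact conditional binomial intervals with 1 UMI added to each sum (scipy 1.17.1), all at 95% and for counting error only. A gene at 0 in 1 library has a bound against 3 UMIs. No p-value was computed, because each group was 1 pooled library. The ratio step was run on simulated counts with known folds. These counts had Poisson noise only, which the intervals assume. The run therefore cannot show how the intervals hold for sums over few, unequal cells. The 10 genes, always named, and the 6 lists of other genes were chosen with earlier results of these data known; from each list the 4 genes with the most UMIs could be named, and the 6 genes most like the summed level were taken by correlation. The pericyte and contractile sub-lists are a split of the marker list made after seeing the data. TMM factors came from edgeR 4.0.16 in R 4.3.3, as an alternative scaling.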

Additional observations from a re-analysis of the deposited data

Results flagged for a closer look

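Over all filtered cells the genotype difference in Col4a1 ran in opposite directions in the limbs. The log2 ratio of slie/slie over control was -0.38 in the injured limb (632 CPM in slie/slie and 822 CPM in control) and 0.59 in the uninjured limb (432 CPM in slie/slie and 284 CPM in control). Each limb has 1 library per genotype, so the difference between limbs was not tested. The classes that carry Col4a1 were present in unequal numbers: endothelial-like cells numbered 5 in slie/slie and 26 in control injured limbs, and 49 in slie/slie and 17 in control uninjured limbs. Within pericyte or smooth muscle-like cells the ratio was 0.96 (0.86 to 1.07) in the injured and 1.40 (0.95 to 2.12) in the uninjured limb, and both intervals include 1.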

How the results depend on the processing

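No paired analysis was possible because each group was 1 pooled library. Values here are log2 ratios of the 10 genes' summed UMIs. The difference between injured and uninjured limbs in vessel classes kept its direction in all settings run: 1.87 (cells thinned to 500 UMIs), 2.10 (cells weighted equally) and 3.40 (cells with an Rgs5 UMI) for control pericytes beside 2.46 as reported; 2.36 (without called doublets), 2.69 (thinned) and 2.46 (without the 3 deepest cells) for control endothelial-like cells beside 3.17; and 2.60 (thinned), 2.85 (equal weights), 2.73 (without the 3 deepest) and 1.66 (cells with a Myh11 UMI) for slie/slie pericytes beside 1.96. The Rgs5 and Myh11 settings were chosen after seeing the data. In slie/slie mesenchymal-like cells injury gave -0.25 without cells under 0.5% mitochondrial UMIs, -0.26 without doublets, -0.23 with equal weights and -0.25 without the 3 deepest, beside -0.43.

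The genotype ratios in the injured limb changed sign in some settings in each class, and the settings differed between classes. Pericytes gave 0.43 thinned, 0.38 with equal weights and 0.55 without the 3 deepest cells, beside -0.16. Cluster 1 gave -0.056, 0.11 and 0.24 in that order, beside -0.26, and cluster 6 gave 0.41, -0.18 and -0.37, beside -0.78. Cluster 0 gave -0.21 without cells under 0.5% mitochondrial UMIs, -0.11 without doublets, -0.20 at Leiden resolution 0.5 and 1.42 without the 3 deepest, beside 0.41. In the uninjured limb, pericytes gave -0.30 thinned, -0.38 with equal weights and 1.17 in Rgs5 cells, beside 0.35, and endothelial-like cells 0.18 without doublets, 0.23 thinned, 0.40 with equal weights and 0.054 without the 3 deepest, beside 0.97.

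Over all cells, the injured genotype ratio (-0.28) became -0.14 without cells under 0.5% mitochondrial UMIs, 0.17 thinned, 0.21 with equal weights, 0.046 without the 3 deepest and -0.63 over all barcodes. The uninjured one (0.29) became -0.12 without doublets, -0.31 thinned, -0.12 with equal weights, 0.039 without the 3 deepest and 0.79 over all barcodes. The control injury ratio (0.94) became 0.49 without doublets, -0.31 thinned, 0.10 with equal weights, 0.60 without the 3 deepest, 1.13 with TMM and 1.72 over all barcodes, and the slie/slie one (0.37) became 0.72 without cells under 0.5% mitochondrial UMIs, 0.17 thinned and 0.61 without the 3 deepest. The cause was not tested.

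The following log2 ratios of single genes had the opposite sign of the main value. Without the 3 deepest cells, Lama4 and Nid1 in injured pericytes gave 0.081 and 0.077 between genotypes. In cluster 6 the thinned ratios were 0.82 for Lama4, 0.41 for Lamb1 and 1.41 for Nid1, and with equal weights 0.45 for Lama4 and 0.18 for Nid1. Thinned, Hspg2 in uninjured endothelial-like cells gave -1.20 between genotypes, Lama4 and Lamb1 in control pericytes -0.18 and -0.60 with injury, and Nid1 and Nid2 in control endothelial-like cells -0.12 and -0.70 with injury. TMM moved the median of all genes by 0.22 in control pericytes, 0.14 in control endothelial-like cells, 0.20 in uninjured endothelial-like cells and over all control cells, and -0.23 in cluster 0. Single genes were followed over the settings only where measured with a main interval that excludes 1. Of these values, 438 stayed within the counting interval, 41 moved and 12 turned their sign, 8 of the 12 with cells thinned. The Rgs5 and Myh11 settings are included. Thinned sums hold few UMIs, and the 1 UMI added to each weighs more in the library with fewer cells, so thinned signs of low genes cannot show a reversal. Lamb1 in control pericytes and Nid2 in control endothelial-like cells had 0 UMIs in the uninjured limb before thinning.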

Other observations

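Lymphatic endothelial-like cells of the uninjured limbs, 5 in slie/slie and 10 in control, held few collagen IV transcripts. Laminin chains gave 76.2% (52.8 to 91.8) of 21 UMIs in slie/slie and 50.0% (21.1 to 78.9) of 12 UMIs in control cells. Lama4, the alpha chain gene, led with 11 and 3 UMIs, and Col4a1 and Col4a2 together gave 1 and 1. In blood endothelial-like cells of the same limbs collagen IV gave 62.9% (57.6 to 68.0) and 64.7% (52.2 to 75.9) and laminin chains 13.2% (9.84 to 17.2) and 11.8% (5.22 to 21.9) in slie/slie and control.

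A single Schwann or glial-like cell of the slie/slie injured limb carried UMIs of all 10 genes, with Hspg2 (13 UMIs), Col18a1 (12) and Col4a1 (10) ahead of Lamb1 (9). In the 16 cells of the slie/slie uninjured limb Col4a1 (35 UMIs in 6 cells) and Hspg2 (20 UMIs in 8 cells) led.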
